A study of Mus musculus with 44 samples.

Results

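Clustered PCGF1 peaks are the places where several separate PCGF1 peaks lay on the same stretch of RING1B in mouse haematopoietic progenitor cells, within chromatin marked by H3K27me3. A PCGF1 peak was counted here when it overlapped both a RING1B peak and an H3K27me3 region, by 1 bp or more each, and when that RING1B peak also met at least 1 other PCGF1 peak. A dense block on chromosome 8, 126061200 to 126152230, was left out by the rule. It held 48 PCGF1 peaks, of which 25 met all other conditions. This left 480 of the 2569 PCGF1 peaks (18.7%, exact 95% binomial interval 17.2 to 20.2). They lay on 202 of the 24987 RING1B peaks, each called a cluster below, and on 204 of the 135391 H3K27me3 regions. Positions are in build mm9.

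Polycomb repressive complex 1 places ubiquitin on histone H2A through its RING1A or RING1B subunit, and Polycomb repressive complex 2 places methyl groups on lysine 27 of histone H3, giving H3K27me3. PCGF1 is the subunit that defines a variant form of the first complex, which also contains KDM2B, a protein that binds unmethylated CpG-rich DNA. In progenitor cells both complexes are known for keeping developmental and lineage genes silent, and wide domains that carry RING1B and H3K27me3 are the classical form of a Polycomb target.

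All libraries behind the 3 lists came from IdHP cells, haematopoietic progenitors from bone marrow of B6CBAF1/J mice, cultured on TSt4 stroma with IL7, SCF and Fl3L for 15 to 18 passages and fixed with 1% formaldehyde for 10 minutes. PCGF1 was mapped with an antibody to FLAG in Pcgf1 -/- cells given FLAG-PCGF1 (2 libraries), so its signal is that of the added protein. The sources used here do not give the promoter that drives it or its level. RING1B and H3K27me3 were each mapped in 2 libraries of Pcgf1 fl/fl cells, which is another cell population than the FLAG libraries. The cell type could not be checked against markers, since the lists hold no expression. The labels describe 44 libraries in 23 groups, and the 38 others, among them the FLAG library of Pcgf1 -/- + NC cells and the RING1B and H3K27me3 libraries of Pcgf1 -/- cells, were not analysed here.

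Each list covers both of its libraries together, so no value has a replicate error and the read depth is unknown. The membership rule used the positions in all 3 lists. Counts, widths and fold values of the members are therefore given as descriptions, with no test, and binomial intervals cover counting error only. These intervals treat peaks as independent, while members come in groups on the same RING1B peak, so intervals over PCGF1 peaks are too narrow. The fold of a PCGF1 or RING1B peak is the authors' mean enrichment over their own background, and the -log10 q is the authors' significance of the peak. H3K27me3 regions have a height, their highest signal, on a scale that is not stated.

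The clusters were mostly groups of near neighbours. Of the 202 clusters, 140 held 2 PCGF1 peaks, 39 held 3, 16 held 4, and 7 held between 5 and 9. In these clusters 508 PCGF1 peaks were listed, of which 28 lay off H3K27me3 and so were not members. The 306 gaps between neighbouring PCGF1 peaks of a cluster had a median of 302.5 bp (interquartile range 230.25 to 504.5), and the smallest was 197 bp, which was also the smallest gap anywhere in the PCGF1 list. Under 300 bp there were 151 gaps (49.3%, interval 43.6 to 55.1), under 500 bp 227 (74.2%, 68.9 to 79.0) and under 1 kb 285 (93.1%, 89.7 to 95.7). A neighbour less than 500 bp away was found for 386 of the 480 members, where 37.4% of the whole PCGF1 list had one. Peaks of 1 RING1B peak must lie near each other, so that contrast is partly set by the rule.

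**Figure D1:**
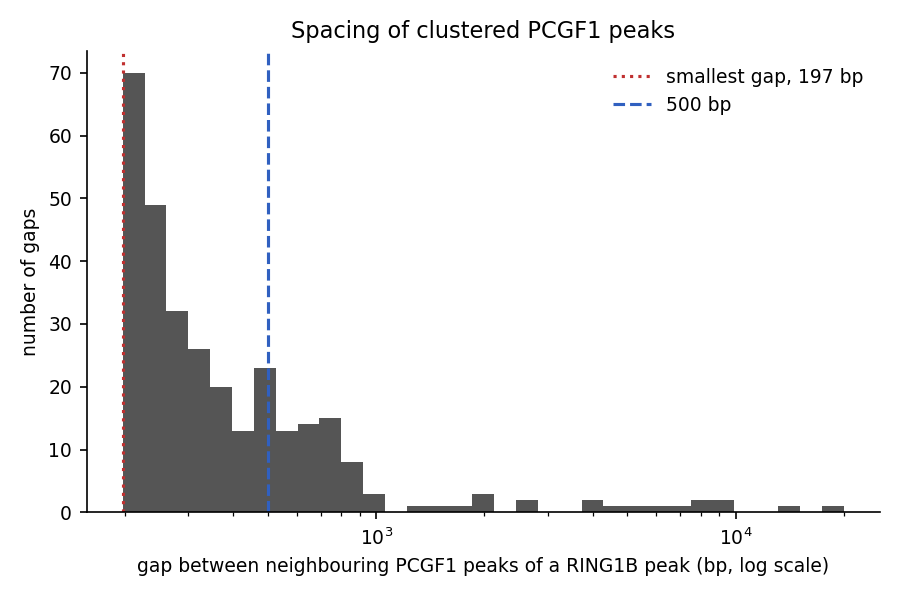
Histogram of the 306 gaps between neighbouring PCGF1 peaks of a cluster, in bp on a log scale, with the number of gaps on the y axis. The bars are highest just above the smallest listed gap of 197 bp (dotted line), 227 gaps lie under 500 bp (dashed line), and 15 are 2 kb or longer.

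Read with a coarser ruler, most clusters became a single site. In 141 clusters (69.8%, interval 63.0 to 76.0) every gap was under 500 bp, so that joining PCGF1 peaks less than 500 bp apart left 61 clusters with 129 joined peaks. Joining peaks less than 2 kb apart left 14 clusters with 25 joined peaks. The larger part of the 480 members were thus pieces of compact PCGF1 sites, and 14 RING1B peaks held sites that lay 2 kb or more apart. Whether the breaks between close pieces come from the depth of the FLAG libraries or the settings of the peak caller was not tested.

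The PCGF1 pieces of a cluster together formed a site of about 1 to 2 kb. From the first base of the first piece to the last base of the last, the span had a median of 1419 bp (interquartile range 908.5 to 2223.25, highest 17884), and the pieces added up to a median of 876 bp. A single member was short: members ran from 49 to 4477 bp, and the median was 273.5 bp (131 to 579.25). Single PCGF1 peaks on RING1B with H3K27me3, the 490 outside the block that had their RING1B peak to themselves, measured 474 bp at the median (188 to 1027.75). PCGF1 peaks that shared a RING1B peak but lay off H3K27me3, 315 in number and 28 of them in the clusters, had a median of 212 bp (128 to 382.5). A clustered peak was thus shorter than a single one at the median, while a whole cluster covered more bases. A cluster adds up several peaks by the rule, so its larger cover is in part fixed in advance.

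The members' enrichment was close to that of the list. Their PCGF1 fold had a median of 4.86 (interquartile range 4.63 to 5.13, range 2.43 to 6.38), beside 4.90 (4.65 to 5.23) for single peaks, 4.77 (4.58 to 4.96) for peaks sharing RING1B off H3K27me3, and 4.79 over all PCGF1 peaks. Above the list's median lay 270 of the 480 members, where 50% of the whole list did. The median -log10 q of members was 2.06 (1.59 to 2.56), and the highest was 4.87. None of the 480 members reached 5, which allows a share of up to 0.625% when 3 counts are taken as the limit of a count of 0, where 2.49% of the PCGF1 list and 35 of the 490 single peaks did.

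**Figure D2:**
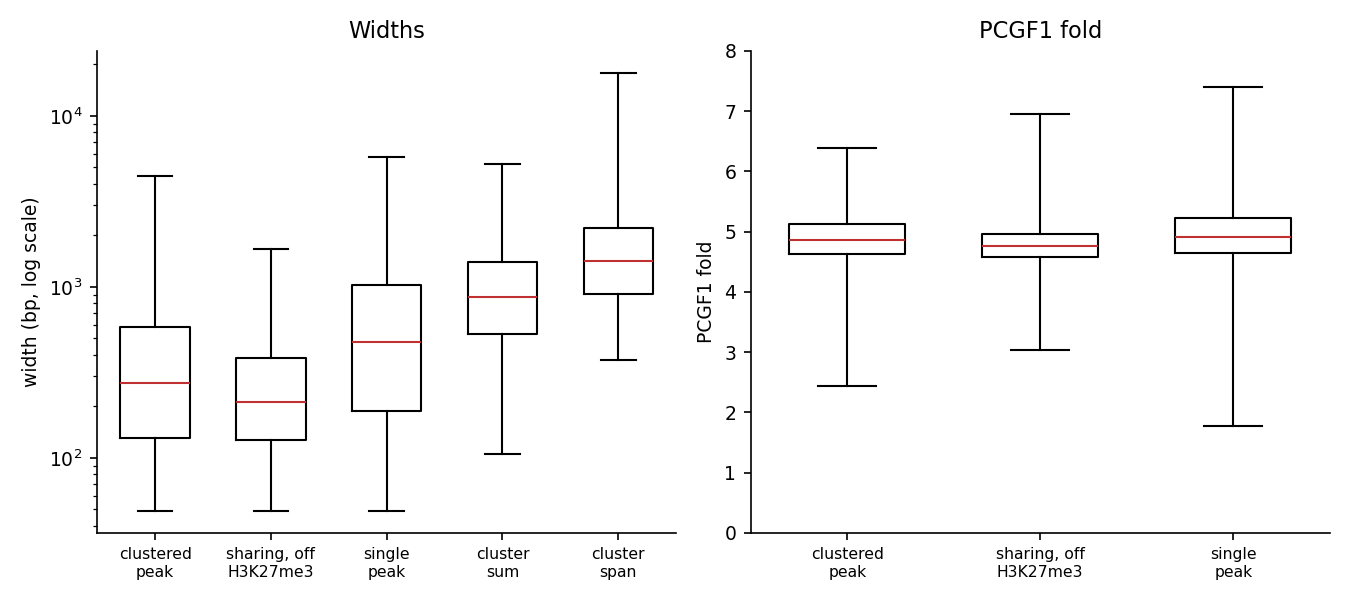
Widths in bp on a log scale (left) and authors' PCGF1 fold (right) for 480 clustered peaks, 315 peaks sharing a RING1B peak off H3K27me3 and 490 single peaks, with the summed width and the span of the pieces of the 202 clusters. Boxes show quartiles with the median in red and whiskers the full range; the median width is 273.5 bp for a clustered peak, 474 bp for a single peak and 1419 bp for the span of a cluster, while the 3 fold distributions overlap.

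Within a cluster the pieces were of nearly equal fold, but PCGF1 fold varied little over the whole list too. The ratio of the highest to the lowest fold had a median of 1.10 (1.05 to 1.18) and never passed 1.45. Over all PCGF1 peaks the fold quartiles were 4.58 and 5.05, so the small ratio is not particular to the clusters. The piece of highest fold was also the widest in 122 of the 202 clusters (60.4%, interval 53.3 to 67.2). With 140 clusters of only 2 pieces, many such matches arise without any link between fold and width. The share reached in that way was not computed, so the 60.4% is not set against it. In the 62 clusters of 3 or more pieces the piece of highest fold was an inner piece in 35 (56.5%, 43.3 to 69.0). Inner pieces made up 104 of the 228 pieces of these clusters (45.6%). That pooled share weights clusters of many pieces more heavily, while the 35 count 1 piece per cluster. A baseline per cluster was not computed, so the 2 shares are not like for like.

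RING1B under the clusters was wide. The width of RING1B peaks holding clustered PCGF1 ran from 516 to 45345 bp around a median of 5991 bp (quartiles 3026.25 and 11092.5), beside 2691.5 bp (1119.75 to 5110) for the 490 RING1B peaks with a single PCGF1 peak on H3K27me3 and 744 bp over all RING1B peaks. Wider than 10 kb were 60 of the 202, where 1.86% of the RING1B list was. A RING1B peak must be long enough to hold several PCGF1 peaks, and a long one has more room for them, so the difference in width follows in part from the rule. Clusters of 3 or more pieces lay on RING1B peaks whose median was 9834.5 bp, and for clusters of 2 pieces it was 4465 bp.

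RING1B fold under the clusters went with this width. Its median was 4.23 (interquartile range 3.54 to 5.95, range 2.40 to 19.4), beside 3.57 (3.19 to 4.46) for RING1B peaks with a single PCGF1 peak and 3.22 over all RING1B peaks. A -log10 q of at least 5 was reached by 105 of the 202 (52.0%, interval 44.9 to 59.0), where 9.96% of the RING1B list and 32.7% of the peaks with a single PCGF1 peak reached it. Across the 202 clusters, RING1B width and fold had a Spearman rho of 0.80; both values come from the same libraries. RING1B fold and the highest PCGF1 fold of the cluster, which come from different libraries, had a rho of 0.25. That highest fold is a maximum over the pieces, with a median of 5.04 in clusters of 2 and 5.27 in clusters of 3 or more. The number of pieces and RING1B width had a rho of 0.39. How far the 0.25 follows from taking the maximum was not tested.

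Set side by side in classes of RING1B width, the RING1B folds of clusters and of peaks with a single PCGF1 peak lay near each other except among the widest. For RING1B peaks of up to 2 kb the median folds were 3.28 in 27 clusters and 3.13 in 193 peaks with a single PCGF1 peak, but the median widths, 1269 and 832 bp, were not alike. Between 2 and 5 kb they were 3.69 in 60 clusters and 3.69 in 170, at median widths of 3365.5 and 3260 bp. Between 5 and 10 kb they were 4.96 in 55 clusters and 4.80 in 85, at 7121 and 6427 bp. Above 10 kb they were 6.99 in 60 clusters and 5.74 in 42, at median widths of 17290.5 and 16428 bp. These differences were not tested.

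**Figure D3:**
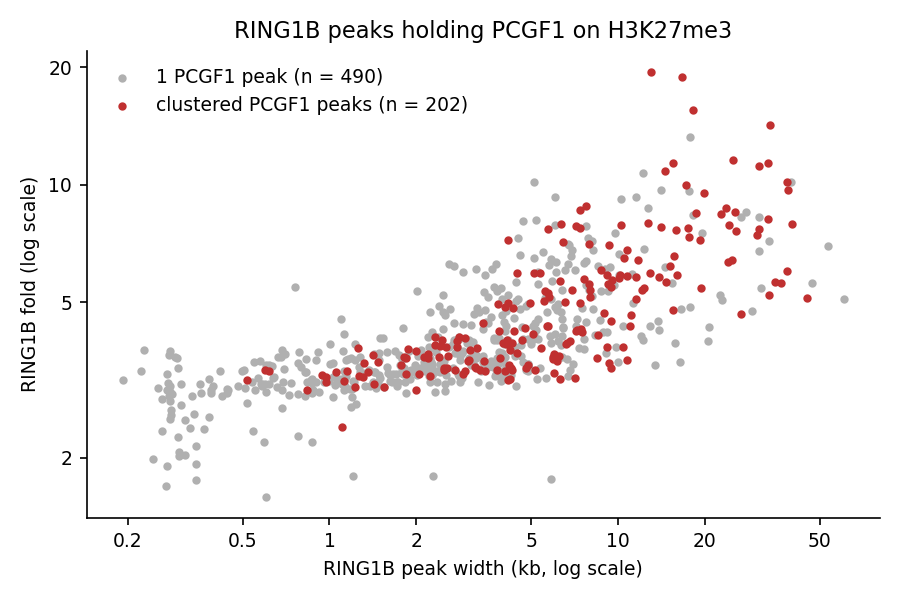
RING1B fold against RING1B peak width, both on log scales, for the 202 RING1B peaks holding clustered PCGF1 (red) and the 490 holding a single PCGF1 peak on H3K27me3 (grey). Red points are few under 1 kb, and the 5 clusters of highest fold, 11.5 to 19.4, are all wider than 10 kb.

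The share of RING1B peaks that were clusters went from 0.134% (27 of 20191, interval 0.0881 to 0.194) up to 2 kb to 1.85% (1.42 to 2.38) between 2 and 5 kb, 5.03% (3.81 to 6.49) between 5 and 10 kb and 12.9% (10.0 to 16.3) of the 464 above 10 kb. The share with a single PCGF1 peak on H3K27me3 rose over the same classes too, from 0.956% through 5.25% and 7.77% to 9.05%. A longer RING1B peak has more room for PCGF1 peaks, so the rise follows in part from the rule. The PCGF1 span grew much less than RING1B. Its median was 807 bp on RING1B peaks of up to 2 kb, 1302 bp between 2 and 5 kb, 1500 bp between 5 and 10 kb and 1861 bp above 10 kb. As a part of the RING1B peak the span thus went from a median of 76.3% in the shortest class through 42.3% and 24.4% to 13.0% in the widest. RING1B width both sets the classes and divides this share, so a fall is in part built in. PCGF1 as listed covered a small part of the wide RING1B domains.

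Clusters lay inside their RING1B peak and somewhat towards its middle. Wholly inside RING1B were 453 of the 480 members, and in 24 of the 202 clusters the PCGF1 span ran past an end of the RING1B peak. With 0 at the first and 1 at the last base of the RING1B peak, the centre of the PCGF1 span had a median position of 0.51 (interquartile range 0.40 to 0.65). Short RING1B peaks leave the span little room away from the middle. The centres of the 480 members had a median position of 0.53 (0.33 to 0.70) in the RING1B peak and 0.48 (0.23 to 0.70) in the H3K27me3 region.

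**Figure D4:**
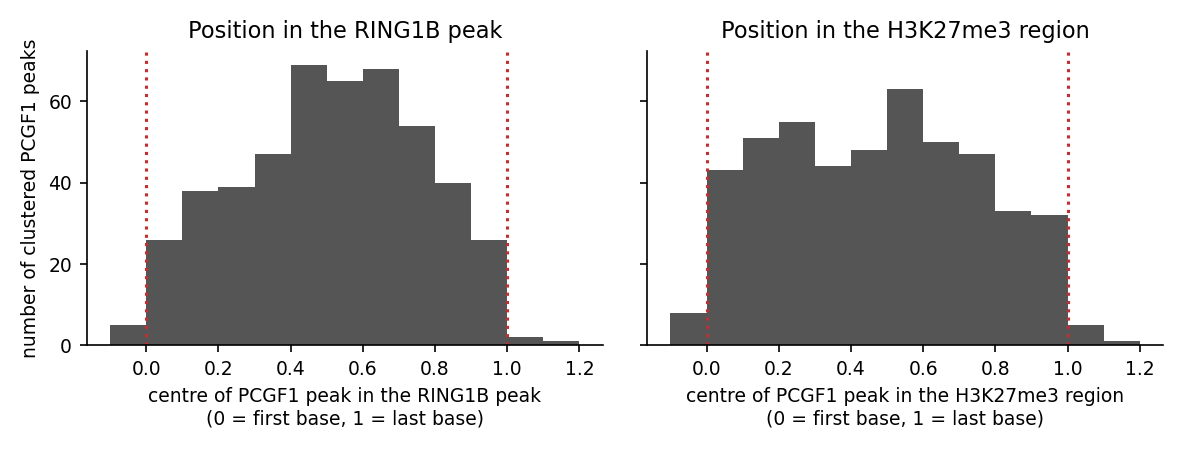
Number of clustered PCGF1 peaks by the position of their centre in the RING1B peak (left) and in the H3K27me3 region (right), where 0 is the first and 1 the last base (dotted lines) and values outside belong to peaks that reach past an end. In RING1B the counts are highest between 0.4 and 0.7, and in H3K27me3 the members spread over the whole region.

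H3K27me3 under the clusters was broad and of more than usual height. The 204 regions were 19705 bp wide at the median (quartiles 11032.5 and 33612.5), beside 14080 bp for the 475 regions under single PCGF1 peaks and 1840 bp over the H3K27me3 list. Their height had a median of 169 (141 to 199), beside 156 (122 to 191) under single peaks and 68.5 over the list. Above the list's median height lay 197 of the 204 regions, where 49.9% of the list did, and 460 of the 475 under single peaks. The heights of regions under clustered and under single peaks overlapped widely. A wide region has more room for PCGF1 and RING1B peaks, so the difference in width from the list follows in part from the rule. How far the difference in height goes with width was not tested. In 119 of the 202 clusters (58.9%, interval 51.8 to 65.8) the RING1B peak lay wholly on H3K27me3, and in 103 its H3K27me3 region held no other RING1B peak. A region seldom held several clusters: 1 region held 2 or more.

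The cluster with the most pieces was at chromosome 19, on a RING1B peak at 45295215 to 45320033 (24819 bp, fold 6.43) inside an H3K27me3 region of 89030 bp and height 326. Its 9 PCGF1 peaks, from left to right, had folds of 4.58, 4.41, 4.04, 4.83, 4.63, 4.74, 4.45, 4.24 and 5.19. After the first piece came a gap of 4862 bp, and the other 8 followed each other with gaps of 230 to 861 bp. It was thus a compact row of 8 pieces with 1 piece apart, and the last and widest piece (1406 bp) had the highest fold.

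On chromosome 14, the RING1B peak at 122862279 to 122893132 (30854 bp, fold 11.2) held 8 PCGF1 peaks in 2 rows. The 2 pieces of the left row had folds of 4.91 and 4.68. After 8867 bp came 6 pieces with folds of 4.63, 5.59, 5.09, 5.45, 4.74 and 4.37. The rows lay on 2 different H3K27me3 regions, so that a single RING1B peak joined them. Rows far apart were also seen on chromosome 7, there on a single H3K27me3 region, where the RING1B peak at 138685463 to 138704071 (18609 bp, fold 8.45) held 3 pieces with folds of 4.71, 5.12 and 4.84. A gap of 9099 bp followed, and then 5 pieces with folds of 4.22, 5.19, 4.85, 4.68 and 4.57.

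Other clusters of many pieces formed a single row. On chromosome 15, 35219003 to 35237147 (RING1B width 18145 bp, fold 15.6), 6 pieces had folds of 5.22, 6.11, 4.66, 4.55, 4.70 and 4.47, with gaps of 228 to 818 bp. Also on chromosome 15, 98619987 to 98624740 (4754 bp, fold 4.30), 6 pieces had folds of 5.06, 4.50, 4.87, 4.87, 4.54 and 4.91, with gaps of 206 to 376 bp. The second is a RING1B peak with a fold near the median of the clusters, and its PCGF1 row began 0.371 kb after its start and spanned 67.3% of it. In the first the PCGF1 row began 4.55 kb after the start of a far longer RING1B peak and spanned 22.2% of it.

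Chromosome 2, 73103417 to 73120114, held the member of highest PCGF1 fold. There, on a RING1B peak of 16698 bp and fold 18.9, 5 pieces had folds of 4.96, 4.74, 6.38, 5.24 and 5.07. The middle piece was 3613 bp long and stood above its neighbours in fold, width and -log10 q (4.87). On chromosome 7, 152123554 to 152129505, a RING1B peak of 5952 bp and fold 3.57 held 5 pieces with folds of 5.94, 4.83, 4.46, 4.90 and 4.90. Here the widest piece (2181 bp) came first, at the left end of the RING1B peak, and gaps were 216 to 379 bp.

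The last 3 of the 10 clusters with the most members held 4 each. Chromosome 4, 117148130 to 117173144 (25015 bp, RING1B fold 11.5), had folds of 4.63, 5.85, 4.74 and 4.67, with the second piece 4040 bp long and 8314 bp away from the first. Chromosome 3, 66757397 to 66790401 (33005 bp, fold 11.3), had folds of 4.61, 5.59, 5.19 and 4.66, all at 26.8 kb or more after the start of the RING1B peak. Chromosome 4, 114721799 to 114736299 (14501 bp, fold 10.8), had folds of 4.87, 4.64, 4.61 and 5.56, the last after a gap of 3743 bp. In the first 2 of these sites the second piece had the highest fold, and in the other the lone last piece did.

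**Figure D5:**
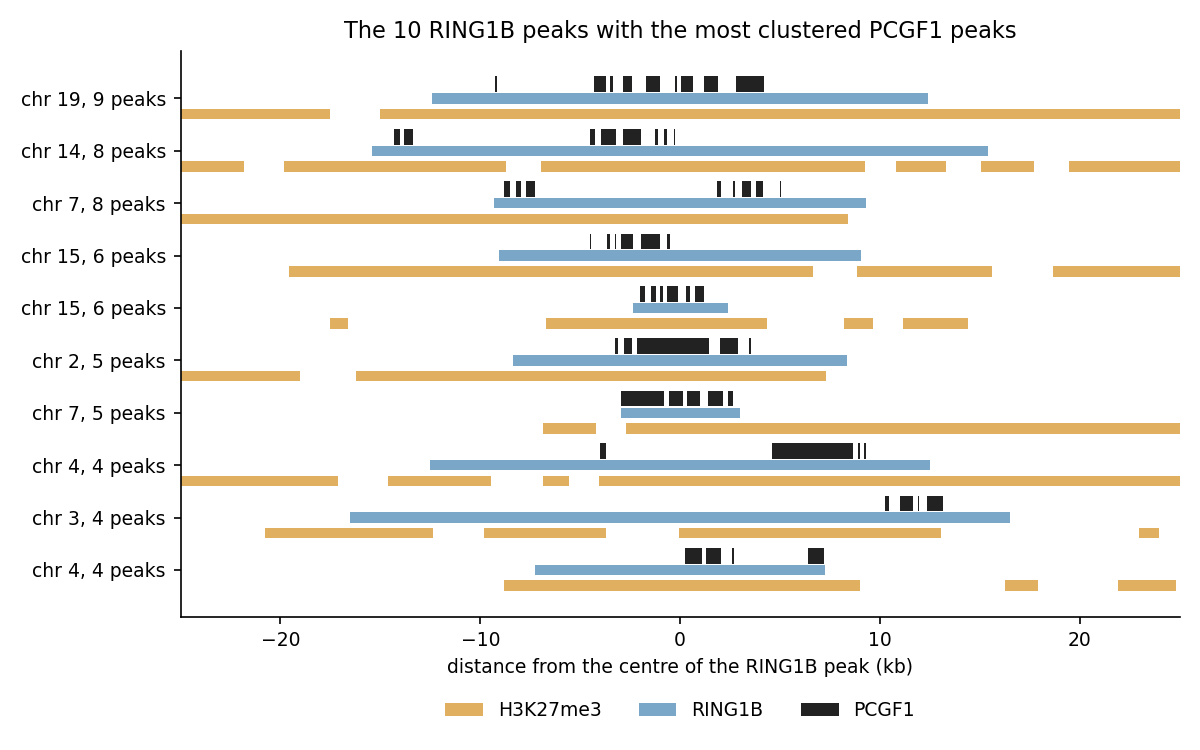
The 10 RING1B peaks with the most clustered PCGF1 peaks, ordered from the top by number of members and then RING1B fold, drawn to scale against the distance from the centre of the RING1B peak in kb. Black bars are PCGF1 peaks (drawn at least 0.08 kb wide), blue bars the RING1B peak and yellow bars H3K27me3 regions, drawn only within 25 kb; the clusters on chromosomes 14 and 7 with 8 peaks each show 2 rows of PCGF1, and several others a single compact row.

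The 10 members of highest PCGF1 fold ranged from 5.94 to 6.38, and not all were large. After the peak on chromosome 2 came chromosome 7, 56889700 to 56889787 (fold 6.37), which was 88 bp long on a RING1B peak of fold 7.14. Chromosome 14, 58690186 to 58690391 (6.32), was 206 bp long on RING1B of fold 8.61, and chromosome 1, 167931831 to 167931922 (6.30), was 92 bp long on RING1B of fold 7.75 inside a small H3K27me3 region of 1040 bp and height 47.8. These 3 short pieces had higher folds than the 3 widest members, which had 5.45, 5.85 and 5.63.

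The others of high fold were mostly longer. Chromosome 8, 35870332 to 35872105 (6.25, RING1B fold 3.83), was 1774 bp long, and chromosome 4, 3864206 to 3865441 (6.18, RING1B fold 14.2), 1236 bp. Chromosome 14 held a pair in 1 cluster, 47502554 to 47503461 (6.18, 908 bp) and 47503716 to 47505574 (6.11, 1859 bp), 254 bp apart and on RING1B of fold 4.14. The list closed with chromosome 15, 35224430 to 35224560 (6.11, 131 bp), and chromosome 7, 152123564 to 152125744 (5.94, 2181 bp), both in clusters described above. RING1B fold under these 10 members ran from 3.57 to 18.9, so strong PCGF1 pieces lay on RING1B of ordinary and of high fold. The 5 members of highest -log10 q, 4.50 to 4.87, were all among them.

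The RING1B peaks of highest fold that held clusters had 3 to 6 pieces. The highest, chromosome 10, 21867797 to 21880761 (12965 bp, fold 19.4), held 3 pieces with folds of 5.63, 4.75 and 5.55, the first of them 3615 bp long. It was followed by the sites on chromosomes 2 and 15 given above. Chromosome 4, 3834419 to 3868086 (33668 bp, fold 14.2), held 4 pieces with folds of 4.56, 6.18, 5.21 and 4.78, of which the last 2 lay off H3K27me3. The first of the 4 pieces began 29.3 kb after the start of that wide RING1B peak.

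At the other end stood a cluster on chromosome 2, 181662900 to 181664006, with the lowest RING1B fold (2.40, 1107 bp). Its 2 members had the lowest PCGF1 folds of all, 2.43 and 3.15, and lay on the second tallest H3K27me3 region under any cluster, of height 437. All other members had a PCGF1 fold of at least 4.04, and the next 4 RING1B folds from the bottom were 2.98, 2.98, 3.04 and 3.04. The tallest region, chromosome 7, 52877020 to 52886090, had a height of 1185, and its 2 members lay on a RING1B peak of 596 bp and fold 3.35, the second narrowest. These 2 RING1B folds were low among the clusters, but the first peak had a -log10 q of 5.13 (2.53 in the other) and the second a fold above the RING1B list's median of 3.22.

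The next tallest H3K27me3 regions, beside that of the 9 pieces on chromosome 19, were of another form. Chromosome 3, 96176250 to 96205780, had a height of 390 over 29530 bp, and chromosome 19, 24952600 to 24981660, a height of 304 over 29060 bp with 4 members. Both carried RING1B of higher fold, 7.71 and 5.84. The narrowest RING1B peak with a cluster, chromosome 16, 18626361 to 18626876, was 516 bp long and its PCGF1 pieces reached past it. Of the 5 narrowest, 516 to 941 bp, the PCGF1 pieces reached past the RING1B peak in 4.

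The 14 clusters with a gap of 2 kb or more lay mostly on wide RING1B domains. Their RING1B peaks measured 24917 bp at the median (range 6591 to 45345) and a median fold of 7.58, beside 5555 bp and 4.18 in the 141 clusters with every gap under 500 bp. H3K27me3 height had a median of 216 in the first and 165 in the second, and the highest PCGF1 fold of a cluster 5.16 and 5.12. Clusters with separate PCGF1 sites thus differed from compact ones in the medians of RING1B width and fold and much less in that of PCGF1 fold. A long gap needs a long RING1B peak, so the width follows from the choice. RING1B fold went with width (rho 0.80 across the clusters), and all clusters above 10 kb had a median fold of 6.99. PCGF1 fold has a narrow range in the whole list (quartiles 4.58 and 5.05), and whether this limits the difference was not tested. These contrasts were not tested.

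The longest gap, 17617 bp, was on chromosome 3 at 96177160 to 96208086 (30927 bp, RING1B fold 7.71), between 2 short pieces of fold 4.53 and 4.51. On chromosome 6, 52192461 to 52231135 (38675 bp, fold 10.2), a piece of fold 4.41 lay 14481 bp from 3 others of fold 4.67, 4.91 and 4.77, in an H3K27me3 region of 134310 bp that held 13 RING1B peaks. Chromosome 2, 38186415 to 38216835 (30421 bp, fold 7.45), held 3 pieces of fold 4.56 to 5.0 and, 8083 bp further, 1 of fold 4.71, in a region of 108180 bp with 11 RING1B peaks. Most of these pieces had a PCGF1 fold under the list's median of 4.79, while the RING1B folds were all over that list's median of 3.22.

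The 3 smallest gaps, by contrast, were 197 bp on chromosome 17 (RING1B peak 71898090 to 71921827), 197 bp on chromosome 2 (18609728 to 18648543) and 198 bp on chromosome 19 (24967000 to 24977770), the last tied with a gap on chromosome 5 (34626454 to 34633278). The second of these RING1B peaks, 38816 bp wide, also held a gap of 2803 bp, so that close and distant pieces occurred together.

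In the widest RING1B peak with a cluster, chromosome 7, 123157192 to 123202536 (45345 bp, fold 5.13), the 2 pieces were 53 and 151 bp long, 7472 bp apart, with folds of 5.25 and 4.38. On chromosome 8, 96694873 to 96704366 (9494 bp, fold 4.48), 2 pieces of fold 5.47 and 4.56 lay 5682 bp from a piece of fold 5.27. On chromosome 13, 63664066 to 63678684 (14619 bp, fold 5.64), 2 members of fold 4.93 and 4.56 lay 5586 bp from the nearest of 2 pieces off H3K27me3. The others with such a gap, not described above, were on chromosomes 9 and 11, with 3771 and 2015 bp. Wide RING1B peaks also held close pieces: of the 5 widest RING1B peaks with clusters, those on chromosome 13 at 83850226 to 83890428 (40203 bp) and 78310693 to 78349315 (38623 bp) held 2 pieces each, 585 and 262 bp apart.

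At the edge of the rule, the member that shared least with H3K27me3 was the right piece of the 17617 bp pair on chromosome 3, 96205780 to 96205982, with 1 bp. The member that shared least with RING1B, chromosome 2, 181194710 to 181194811, did so over 3 bp. Just outside, 3 PCGF1 peaks that shared a RING1B peak lay 7, 31 and 52 bp from the nearest H3K27me3 region, with folds of 4.46, 4.86 and 4.98. These values lay within the range of the members on either side of the limit.

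Members were spread over all autosomes, with 63 on chromosome 2, 41 on chromosome 4 and 8 on chromosome 16. As a share of the PCGF1 peaks of a chromosome they made up 28.4% (interval 19.9 to 38.2) on chromosome 14 and 26.0% (20.6 to 32.0) on chromosome 2, the highest of the autosomes. The lowest were 10.8% (4.78 to 20.2) on chromosome 16 and 11.7% (7.59 to 17.1) on chromosome 8, whose dense block counts in the total. Over the whole list the share was 18.7%. The 29 members on chromosome 14 lay in 10 clusters, so they are not independent and such intervals are too narrow. The X chromosome held 2 members in 1 cluster, of 13 PCGF1 peaks, and unplaced sequence held 3.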

How the data were processed

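Per the labels, chromatin of cultured cells was immunoprecipitated and sequenced. The submitters' processing notes name Bowtie2, Picard and SAMtools 1.6.0, and builds mm9 and dm3 without their roles; mm9 is taken as the build of the positions. The caller of the peaks, its cutoff and control, and any pooling of reads before calling, are not stated. The PCGF1 and RING1B lists deposited by the authors have the broadPeak layout: a score, which follows the -log10 q and was not used, a fold (ratio over the caller's background), and a -log10 p and -log10 q. For H3K27me3, the authors' signal is listed as a height per region, per the file headers, together with further columns that were not used other than the width over a cutoff.

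Members were found by interval overlap in Python 3.11.15, and the procedure was tested on simulated data and checked against bedtools 2.31.1. PCGF1 and RING1B positions are 1-based; H3K27me3 positions are as listed. Shares have Clopper-Pearson intervals at 95%. Sites were named by rank: most members (10), PCGF1 fold (10), -log10 q (5), widest, narrowest, strongest and weakest RING1B (5 each), tallest H3K27me3 (5) and closest pairs (3). The clusters with a gap of 2 kb or more, and the members of lowest fold, were named after their values were seen. The membership rule and the site lists were chosen with earlier results of these data known. Genes and sequences were not assigned, because the gene and promoter tables used with this work belong to GRCm38.p6, another build. No test was run, since each list stands for 2 libraries.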

Additional observations from a re-analysis of the deposited data

How the results depend on the processing

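Of 104 recomputed values under 13 settings, 67 stayed within 1.5 times the count or within the 95% binomial interval of the median, and 37 moved. Counts of members and of clusters, 480 and 202, were 177 and 81 with a PCGF1 -log10 q of at least 2, 280 and 105 with a RING1B -log10 q of at least 5, 129 and 61 with PCGF1 peaks under 500 bp apart joined, and 25 and 14 with those under 2 kb apart joined. Chosen after seeing the data, joining under 300 bp gave 254 and 118, and under 1 kb 36 and 20. The median gap, 302.5 bp, was 503, 739, 3771 and 5682 bp with joining under 300 bp, 500 bp, 1 kb and 2 kb, since joining removes the shorter gaps by construction. The median RING1B width, 5991 bp, was 7361, 7922, 15350.5 and 24917 bp in that order, 3955 bp with peaks within 1 kb counted as sharing, and 10771 bp with the RING1B limit. The median RING1B fold, 4.23, was 5.13, 7.24 and 7.58 with joining under 500 bp, 1 kb and 2 kb, 3.8 with peaks within 1 kb, 4.97 with the PCGF1 limit and 5.92 with the RING1B limit. The median PCGF1 fold, 4.86, was 5.08 with the PCGF1 limit, and 4.93 and 4.91 with joining under 1 kb and 2 kb. The median width of a member, 273.5 bp, was 409 bp with the PCGF1 limit, and 840 and 892 bp with joining under 1 kb and 2 kb. The median H3K27me3 height, 169, was 179 with the RING1B limit, and 194 and 196 with joining under 1 kb and 2 kb. The limits on -log10 q leave fewer and more significant peaks by construction. A joined peak took the highest fold and -log10 q of its pieces, and its width includes the gaps it bridged. Its fold and width are thus at least those of any of its pieces, by construction. Why the remaining values moved was not tested. No value moved with 50% of the PCGF1 peak covered, the taller 50% of H3K27me3 regions, the other PCGF1 peak also on H3K27me3, chromosomes 8 and 19 left out, the dense block kept or unplaced sequence left out, the last 2 chosen after seeing the data. No paired analysis was possible because each list covers its 2 libraries together, and for the same reason no replicate could be left out. Depth is unknown, so a short gap between pieces cannot be told apart from a lack of reads there.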

Other observations

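Close spacing was not limited to the members. A neighbouring PCGF1 peak less than 500 bp away was found for 238 of the 315 PCGF1 peaks that shared a RING1B peak off H3K27me3, a group chosen for having company. It was found for 269 of all 928 PCGF1 peaks on RING1B off H3K27me3 (29.0%), where the whole list had 37.4%. It was also found for 136 of the 277 on H3K27me3 without RING1B outside the dense block of chromosome 8, and for 76 of the 346 on neither (interval 17.7 to 26.7%). In the dense block all 48 PCGF1 peaks had such a neighbour. Among single peaks on RING1B with H3K27me3, 47 of 490 did, with the neighbour off their RING1B peak. The rule fixes part of these differences, and they were not tested.

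RING1B peaks that held several PCGF1 peaks without any member numbered 125 where the PCGF1 peaks lay off H3K27me3. Their median width was 2501 bp and their median RING1B fold 3.68. Of the 315 PCGF1 peaks off H3K27me3, 52 lay within 1 kb of a region, and the median distance was 4484 bp. In 21 clusters a single member on H3K27me3 shared its RING1B peak only with PCGF1 peaks off the mark.

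The smallest gap between neighbours was 197 bp in the PCGF1 list, 661 bp in the RING1B list and 1510 bp in the H3K27me3 list. Each list thus has its own finest spacing, and the median gap within a cluster, 302.5 bp, is shorter than any gap in the RING1B and H3K27me3 lists. Whether these smallest gaps come from the settings of peak calling was not tested, so gaps of different lists are not like for like. The shortest listed PCGF1 width, 49 bp, was found in 77 of the 2569 peaks and in 12 of the 480 members.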
